A study of Mus musculus with 10 samples.

Results

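The genes described here are 44 enzymes, transporters and regulators of glycolysis, the pentose phosphate pathway and glycogen metabolism, chosen by their symbols from a written list. They took up 45 of the 26335 rows of the expression table, because the symbol Aldoa stood in it on separate lines. Of these 45 rows, 40 had a mean log2 CPM above 0 and were tested among 12306 rows in all. The other 5 rows (Galm, Pdk4, Pgam2, Pygl and Slc2a3) were below that level and are given by their reads only. CPM is the read count of a gene divided by the library total, on a fixed scale, and log2 CPM is the base 2 logarithm of this.

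RNA was sequenced from cultures of mSCLC-2405, a cell line of mouse small cell lung cancer taken from a primary lung tumour. The tumour arose in mice with conditional deletion of tumour suppressor genes, Rb1 among them, started by intratracheal Adeno-Cre virus, so both groups carry these deletions. The 5 control libraries came from cells kept with DMSO, and the 5 stiripentol libraries from cells kept with the antiseizure medication stiripentol, both for 48 h in RPMI medium with 10% FBS. The comparison asks which transcripts differ after stiripentol, a compound studied for its action on lactate dehydrogenase and the respiratory chain. All libraries came from 1 line. The study calls them replicates and defines n for its experiments as biologically independent, but does not describe separate cultures for these libraries, so p-values measure only the spread between them, which may be technical.

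Glycolysis splits glucose into pyruvate and yields ATP and NADH. Lactate dehydrogenase can reoxidise this NADH in the cytosol, and the pyruvate dehydrogenase complex can instead pass pyruvate to the mitochondrion. The pentose phosphate pathway branches off after the phosphorylation of glucose. Its oxidative arm yields NADPH and its non-oxidative arm interconverts sugar phosphates, including the precursor of nucleotides. Glycogen is the storage form of glucose, and proliferating tumour cells are known for a high use of glucose through these routes.

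Each control library held between 22375625 and 65299372 recovered reads, and each stiripentol library between 55015760 and 60670901. The libraries of each group were clustered by the correlation of the log2 CPM values tested here and cut into 2 clusters. This gave a set of 2 and a set of 3. Tests between sets thus reuse the values that formed the sets, and their p-values only describe the gap. Controls 4 and 5 and stiripentol 1 and 2 form the set of 2, and controls 1 to 3 and stiripentol 3 to 5 form the set of 3. Across genes, libraries of the same group and set correlated at 0.989 to 0.994, and libraries of the same group but different sets at 0.974 to 0.981. The sets are matched across groups by the study's own tables, which number controls 4 and 5 of the deposited labels as 1 and 2 and the other controls as 3 to 5, so that same-numbered libraries there share a set. By the labels, used here throughout, same-numbered libraries can lie in different sets. Correlations between groups (0.962 to 0.980 for sets of the same size, 0.957 to 0.982 for the others) did not single out this matching. Each change below is therefore given over all 10 libraries and, where it matters, in each set. Of 12 small cell lung cancer and neuroendocrine markers, 9 were in the table and 3 were tested. Insm1, Chgb, Dll3 and Syp stayed under 0.4 CPM, whereas Yap1 had 49.1 to 175 CPM and Ncam1 92.8 to 154 CPM.

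With stiripentol, 6 of the 40 tested rows fell and 3 rose (limma, adjusted p under 0.05). The 6 that fell were Pfkl, Pgam1, H6pd, Eno1, Pkm and Pdp1, and the 3 that rose were Rpia, Rpe and the second Aldoa row. The last of these, with a control mean below 0 log2 CPM, passed the filter on low values only through its stiripentol libraries, so its test is no support for a rise, and with the filter at a mean above 1 it was not tested and 2 members rose. Pfkfb1 is the other row of the 40 with a group mean below 0. Over all 12306 rows, 14.1% fell and 13.6% rose. The share of members that fell was thus close to that of all rows, and the share that rose was below it. The median change of the members was -0.28 on the log2 scale, and that of all tested rows was -0.056, a value that moved to 0.045 with TMM scaling and to 0.046 with quantile normalization. In all, 7 members were lower in every stiripentol library than in every control, where 14.3% of all rows were, and 2 were higher in every one, where 13% of all rows were. The 7 are the 6 that fell and Pfkfb4, and the 2 are Rpia and the second Aldoa row. The libraries hold RNA of whole cultures, so fewer cells of a type and less RNA per cell cannot be told apart.

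**Figure D1:**
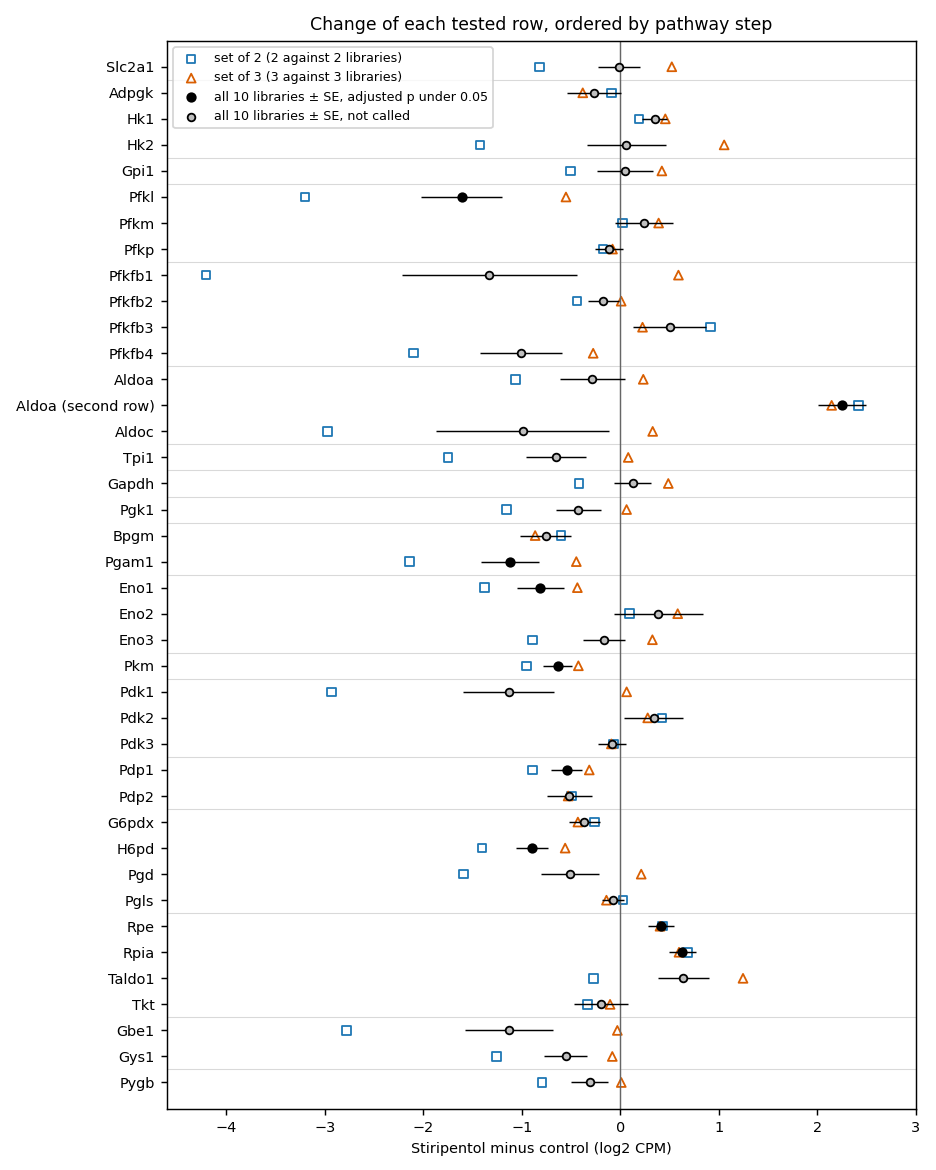
Log2 change (stiripentol minus control) of each of the 40 tested rows, from glucose uptake at the top to glycogen at the bottom. Circles with bars are the change over 10 libraries ± SE (black where called), squares the change in the set of 2 and triangles that in the set of 3. Most squares lie to the left of the triangles, and Pfkfb1 reaches -4.21 in the set of 2.

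Promoter sequence is shown for Pfkl and Pgam1, the called genes with the largest falls, and for Rpia, which rose. Each line gives the 250 bases before the RefSeq transcription start on GRCm38.p6, read 5′ to 3′ on the strand of the gene. Capitals mark the core of the hypoxia response element, which is ACGTG or GCGTG on either strand (CACGT or CACGC on the other), a letter pattern that also lies inside the E-box CACGTG.
Pfkl, chr10:78009808-78010057, minus strand: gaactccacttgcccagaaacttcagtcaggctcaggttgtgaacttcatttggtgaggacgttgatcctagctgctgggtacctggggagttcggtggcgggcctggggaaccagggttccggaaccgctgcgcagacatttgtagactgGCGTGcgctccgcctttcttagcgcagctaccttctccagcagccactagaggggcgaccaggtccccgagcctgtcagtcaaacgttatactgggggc
Pgam1, chr19:41911621-41911870, plus strand: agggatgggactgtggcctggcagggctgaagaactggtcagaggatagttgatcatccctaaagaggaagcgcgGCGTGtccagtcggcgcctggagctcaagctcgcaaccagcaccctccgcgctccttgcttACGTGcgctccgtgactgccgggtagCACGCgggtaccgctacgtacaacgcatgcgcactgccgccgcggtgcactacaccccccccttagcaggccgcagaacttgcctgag
Rpia, chr6:70792176-70792425, minus strand: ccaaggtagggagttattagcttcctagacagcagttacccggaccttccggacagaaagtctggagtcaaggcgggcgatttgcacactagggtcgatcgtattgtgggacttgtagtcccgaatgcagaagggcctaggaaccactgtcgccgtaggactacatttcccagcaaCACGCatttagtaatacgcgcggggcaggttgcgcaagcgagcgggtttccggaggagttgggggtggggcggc
The Pgam1 promoter held 3 of these cores, 175, 114 and 88 bases before the start. The Pfkl promoter held 1, at 99 bases, and the Rpia promoter 1, at 74 bases. RefSeq windows of 300 bases (50 bases past the start included) were found for 41 of the 44 members, and 41 of their 60 windows (68.3%) held the core, against 43.8% of 32851 windows of all genes. Windows of alternative starts of a gene overlap, and base composition was not matched between the lists. The window of Rpe held no core. Nor did that of H6pd (chr4:150003187-150003486, minus strand), but it lies inside the gene, whose 5′ end is listed at 150009023. The E-box CACGTG was in 8.33% of member windows and 7.15% of all, the antioxidant element TGACNNNGC in 6.67% and 12.4%, and the ATF4 pattern TGATGNAA in 0 of 60 member windows and 3.97% of all.

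From glucose uptake to phosphofructokinase, 1 of 12 tested rows was called, a fall, where 14.1% of all rows fell. Slc2a1, the main glucose transporter of many tumour cells, had control values of 6.77, 6.88, 6.73, 7.63 and 7.46 log2 CPM in libraries 1 to 5 and stiripentol values of 6.69, 6.77, 7.33, 7.35 and 7.27 log2 CPM. The groups overlapped, and the change was -0.014 ± 0.22 (SE, adjusted p = 0.968). It was -0.82 in the set of 2 and 0.52 in the set of 3. The difference of these changes passed the test (limma, adjusted p = 3.05e-06), between sets formed from the same values. Hk2, the inducible hexokinase of muscle and tumours, went the same way, with a change of -1.43 in the set of 2 and 1.05 in the set of 3 (adjusted p of the difference = 4.8e-06). Over the 10 libraries Hk2 had a change of 0.062 ± 0.40 (adjusted p = 0.917). Hk1, the hexokinase found in most tissues, had a change of 0.35 ± 0.13 that missed the threshold (adjusted p = 0.0619), with 0.19 in the set of 2 and 0.46 in the set of 3. Adpgk, which phosphorylates glucose with ADP, had a change of -0.26 (adjusted p = 0.483), and Gpi1, which isomerises the product, 0.051 (adjusted p = 0.905).

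Phosphofructokinase is the committed step of glycolysis and is a tetramer of liver (Pfkl), muscle (Pfkm) and platelet (Pfkp) subunits. Pfkl had 6.77, 7.10, 6.52, 7.99 and 7.92 log2 CPM in controls 1 to 5 and 4.72, 4.79, 6.30, 6.19 and 6.25 log2 CPM in stiripentol 1 to 5. Every stiripentol library was below every control, and stiripentol 1 and 2 were far below the other 3. The mean went from 7.26 ± 0.67 to 5.65 ± 0.82 (SD, n = 5 each), a log2 change of -1.61 ± 0.41 (SE) or 0.328 times the control level (limma, adjusted p = 0.0167). With a block for the numbers in the study's tables, chosen after seeing the data, adjusted p was 0.0570. The change was -3.20 in the set of 2 and -0.55 in the set of 3. Pfkm and Pfkp were not called, with changes of 0.24 (adjusted p = 0.551) and -0.12 (adjusted p = 0.555).

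The subunits were also compared within libraries, where the scaling of a library cancels. Pfkm minus Pfkl was -0.26, -0.63, 0.36, -0.26 and -0.19 on the log2 scale in controls 1 to 5 and 3.06, 2.94, 0.72, 0.83 and 0.75 in stiripentol 1 to 5. The groups did not overlap, and the difference of 1.85 had p = 0.00794 in a two-sided exact permutation test over 252 arrangements, the smallest p this design allows. Adjusted over 9 isoform pairs, p was 0.0357. Pfkp minus Pfkl rose as well, from -1.28 ± 0.45 to 0.21 ± 0.97 (SD, n = 5 each, the same exact p and adjusted p). As a share of reads, with no allowance for transcript length, Pfkl made up 34.9% to 47.2% of the 3 subunits in controls and 8.44% to 30.1% in stiripentol, and Pfkm 30.1% to 44.6% and 49.3% to 70.2%. The other 7 pairs did not pass over all libraries. When libraries were permuted only within their sets (120 arrangements, smallest p = 0.0167), 5 of the 9 pairs passed, both pairs with Pfkl among them (adjusted exact p = 0.0300). None of the 9 passed when permuted within pairs of the same replicate number, where 32 arrangements allow no p below 0.0625, or without any 1 of the controls, whereas 2 passed without any 1 of the stiripentol libraries.

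**Figure D2:**
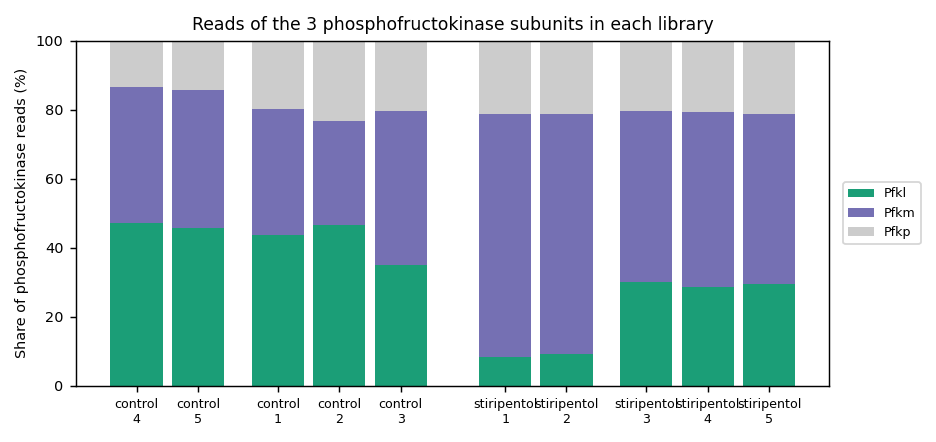
Share of the reads of the 3 phosphofructokinase subunits in each library, in percent, with the set of 2 to the left of the set of 3 within each group. Pfkl makes up 34.9% to 47.2% in controls, 8.44% and 9.11% in stiripentol 1 and 2, and 28.6% to 30.1% in stiripentol 3 to 5.

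The Pfkfb genes code for the bifunctional enzymes that make and remove the sugar bisphosphate that activates phosphofructokinase. None of the 4 was called. Pfkfb4 was 2.66 to 2.87 log2 CPM in controls, 0.59 and 0.76 in stiripentol 1 and 2, and 2.40 to 2.57 in stiripentol 3 to 5. Its groups did not overlap, but the change of -1.0 ± 0.41 missed the threshold (adjusted p = 0.0924). Pfkfb1, the liver form, was at 7 and 11 reads in stiripentol 1 and 2 and at 166 to 173 reads in stiripentol 3 to 5, with 87 to 189 reads in controls. Its change was -4.21 in the set of 2 and 0.59 in the set of 3. Pfkfb3, the form with the strongest kinase activity, had a change of 0.50 (adjusted p = 0.322), and Pfkfb2, the heart form, -0.17 (adjusted p = 0.424).

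From aldolase to pyruvate kinase, 3 of 12 tested rows fell and 1 rose, where 14.1% of all rows fell and 13.6% rose. The row that rose was the second of those with the symbol Aldoa, the aldolase of muscle and most tissues. It held 51, 28, 39, 27 and 10 reads in controls 1 to 5 and 173, 126, 170, 163 and 157 reads in stiripentol 1 to 5. These are -0.81 ± 0.34 and 1.45 ± 0.17 log2 CPM (SD, n = 5 each), a log2 change of 2.25 ± 0.24 (SE) or 4.77 times the control level (adjusted p = 0.000243, of a row that reached the filter only through the group where it is high), and no control reached a stiripentol library. The set of 2 and the set of 3 gave 2.42 and 2.15, and on the log2(CPM + 1) scale the change was 1.26. GENCODE M21 lists adjacent Aldoa genes on the minus strand of GRCm38, at chr7:126795234-126800751 and chr7:126800790-126809108, and the table does not say which row is which, so the gene behind this row is uncertain. The first Aldoa row held far more reads, 45423 to 147732 in controls and 49439 to 65289 in stiripentol libraries. Its change was -0.29 (adjusted p = 0.529), with -1.06 in the set of 2 and 0.23 in the set of 3. Aldoc, the brain aldolase, had a change of -0.99 ± 0.88 (adjusted p = 0.412). It was 6.58 and 6.67 log2 CPM in controls 4 and 5, and 2.33 to 2.84 in controls 1 to 3.

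The enzymes between aldolase and phosphoglycerate mutase were not called. Tpi1, which interconverts the triose phosphates, had a change of -0.65 ± 0.30 (adjusted p = 0.128), with -1.75 in the set of 2 and 0.081 in the set of 3. Gapdh, which reduces NAD at the first energy-yielding step, had a change of 0.13 ± 0.19 (adjusted p = 0.637), with -0.42 in the set of 2 and 0.49 in the set of 3. Pgk1, the first ATP-forming enzyme, had a change of -0.42 (adjusted p = 0.187), with -1.16 and 0.064 in the sets. For Gapdh and Pgk1, as for Tpi1, the changes in the sets differed (adjusted p of the difference = 0.00284, 0.000296 and 8.27e-06).

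Pgam1, the phosphoglycerate mutase of most tissues, fell. It had 9.55, 9.44, 9.11, 9.86 and 9.79 log2 CPM in controls 1 to 5 and 7.61, 7.77, 8.95, 8.91 and 8.91 log2 CPM in stiripentol 1 to 5, and the groups did not overlap. The change was -1.12 ± 0.29 (SE) or 0.459 times the control level (adjusted p = 0.0184), with -2.14 in the set of 2 and -0.45 in the set of 3. Reads from the 765 bases over which the copy Pgam1-ps2 is identical to Pgam1 cannot be told apart, and the table gave this copy 3.44% to 5.46% as many reads. With the reads of copies added, an alternative chosen after seeing the data, the change was -1.11 (adjusted p = 0.0197). Bpgm, which makes the bisphosphoglycerate that lowers the oxygen affinity of haemoglobin, had a change of -0.76 ± 0.26 and missed the threshold (adjusted p = 0.0531), with -0.60 and -0.86 in the sets. Pgam2, the muscle form, held 2 to 30 reads in a library.

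Eno1, the enolase of most tissues, had 9.87, 9.56, 9.32, 9.50 and 9.54 log2 CPM in controls 1 to 5 and 8.20, 8.10, 9.22, 9.06 and 9.16 log2 CPM in stiripentol 1 to 5. The groups did not overlap, but stiripentol 3, at 9.22, lay close to control 3, at 9.32. The change was -0.81 ± 0.24 (SE, adjusted p = 0.0281), with -1.38 in the set of 2 and -0.44 in the set of 3. The call was lost without control 1 (adjusted p = 0.0671), control 2 (0.0557), stiripentol 1 (0.0588) or stiripentol 2 (0.0587). Eno1b, a copy 99.5% identical over 1736 bases, held 43.0% to 50.3% as many reads as Eno1, and with it added the change was -0.80 (adjusted p = 0.0295). Eno2, the neuronal form, and Eno3, the muscle form, were not called, with changes of 0.39 (adjusted p = 0.536) and -0.16 (adjusted p = 0.587).

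Pkm, the pyruvate kinase of muscle and tumours, had 11.09, 11.11, 10.53, 11.21 and 11.29 log2 CPM in controls 1 to 5 and 10.32, 10.28, 10.52, 10.47 and 10.47 log2 CPM in stiripentol 1 to 5. All stiripentol libraries were below all controls, but stiripentol 3, at 10.52, lay next to control 3, at 10.53. The change was -0.64 ± 0.15 (SE) or 0.644 times the control level (adjusted p = 0.0102), with -0.95 in the set of 2 and -0.43 in the set of 3. Splice forms of Pkm are not told apart by a value per gene.

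Pyruvate dehydrogenase is switched off by the kinases Pdk1 to Pdk4 and back on by the phosphatases Pdp1 and Pdp2. Of the 5 of these genes that were tested, 1 fell, where 14.1% of all rows did. Pdp1 had 4.76, 4.83, 4.79, 4.80 and 4.91 log2 CPM in controls 1 to 5 and 3.79, 4.14, 4.56, 4.39 and 4.48 log2 CPM in stiripentol 1 to 5, without overlap. The change was -0.55 ± 0.16 (SE, adjusted p = 0.0277), with -0.89 and -0.31 in the sets. This call was lost without control 1, 2, 3 or 5 or stiripentol 2 (adjusted p = 0.0517, 0.0590, 0.0530, 0.0525 and 0.0638). Pdp2 had a similar change of -0.52 ± 0.23 but was not called (adjusted p = 0.113). Pdk1, a kinase induced by hypoxia, had a change of -1.13 ± 0.46 (adjusted p = 0.0874), made up of -2.93 in the set of 2 and 0.065 in the set of 3 (adjusted p of the difference = 1.73e-07). Pdk2 and Pdk3 had changes of 0.34 and -0.082, and Pdk4 had no reads in any library.

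In the oxidative arm of the pentose phosphate pathway, 1 of 4 genes fell, where 14.1% of all rows did. This was H6pd, which carries out the first steps of the arm inside the endoplasmic reticulum. It had 7.44, 7.44, 7.81, 7.96 and 7.99 log2 CPM in controls 1 to 5 and 6.47, 6.68, 7.01, 6.96 and 7.04 log2 CPM in stiripentol 1 to 5, and the groups were well apart. The change was -0.90 ± 0.16 (SE) or 0.537 times the control level (adjusted p = 0.00288), with -1.40 in the set of 2 and -0.56 in the set of 3. G6pdx, the cytosolic enzyme of the first step, had a change of -0.36 (adjusted p = 0.115), and its ratio to H6pd did not pass the exact permutation test (p = 0.143). Pgd, the decarboxylating dehydrogenase of the arm, had a change of -0.51 (adjusted p = 0.205), with -1.59 and 0.21 in the sets. Pgls, the lactonase, had a change of -0.072 (adjusted p = 0.648).

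In the non-oxidative arm, 2 of 4 genes rose, where 13.6% of all rows did. The summed CPM of the arm overlapped, at 522 to 1034 in control and 591 to 848 in stiripentol. Rpia, which isomerises ribulose and ribose phosphates, had 3.27, 3.33, 3.21, 3.07 and 2.95 log2 CPM in controls 1 to 5 and 3.67, 3.72, 3.87, 3.82 and 3.91 log2 CPM in stiripentol 1 to 5, without overlap. The change was 0.63 ± 0.14 (SE) or 1.55 times the control level (adjusted p = 0.00892) and it was 0.68 and 0.60 in the sets (adjusted p of the difference = 0.610). Rpe, the epimerase that acts on the same ribulose phosphate, had 5.72, 5.72, 5.80, 5.38 and 5.42 log2 CPM in controls 1 to 5 and 5.67, 5.99, 6.14, 6.13 and 6.18 log2 CPM in stiripentol 1 to 5. Stiripentol 1 lay below controls 1 to 3, so the groups overlapped. The change was 0.41 ± 0.14 (SE, adjusted p = 0.0438), with 0.43 and 0.40 in the sets. The Rpe call was lost without any 1 of 8 of the libraries, all but control 3 and stiripentol 1 (highest adjusted p = 0.0870). Taldo1 (transaldolase) had a change of 0.64 ± 0.26 (adjusted p = 0.0890), with -0.27 in the set of 2 and 1.25 in the set of 3, and Tkt (transketolase) had -0.20 (adjusted p = 0.615).

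**Figure D3:**
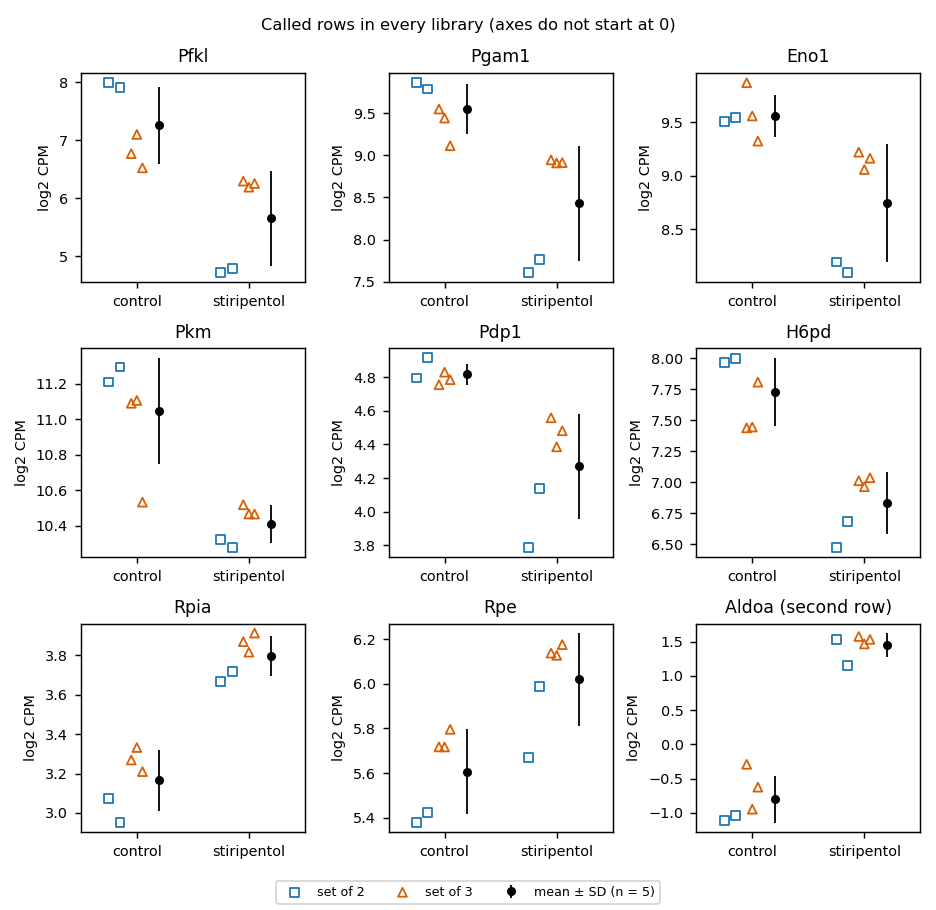
Log2 CPM of the 9 called rows in each library, with squares for the set of 2, triangles for the set of 3 and black points for the mean ± SD of 5 libraries. The stiripentol libraries of the set of 2 are lowest for Pfkl (4.72 and 4.79) and Pgam1 (7.61 and 7.77), and only Rpe overlaps between groups.

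No glycogen gene was called over all libraries. Gbe1, the branching enzyme, was 3.88 to 5.15 log2 CPM in controls, 2.24 and 2.15 in stiripentol 1 and 2, and 3.87 to 4.03 in stiripentol 3 to 5. Its change was -1.13 ± 0.45 (adjusted p = 0.0812), with -2.78 in the set of 2 and -0.030 in the set of 3. Gys1, the glycogen synthase outside liver, had a change of -0.55 ± 0.22 (adjusted p = 0.0823), with -1.26 and -0.081 in the sets. It was called lower with TMM scaling (adjusted p = 0.0482), a replicate block (0.0499) and a term for the set (0.0427). Pygb, the brain phosphorylase, had a change of -0.31 (adjusted p = 0.235), with -0.79 and 0.010 in the sets. Pygl, the liver phosphorylase, held 0 to 25 reads, Slc2a3, a high-affinity glucose transporter, 3 to 15 reads, and Galm, which readies galactose for use, 1 read in 1 library.

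The changes of the members differed between the sets. Within the set of 2 alone, 28 of the 40 rows fell and 5 rose, where 46.5% of all rows fell and 25.7% rose. Within the set of 3 alone, 10 fell and 13 rose, where 27% of all rows fell and 37.7% rose. The 9 rows called over all libraries were among those called in each set. The median change of the members was -0.70 in the set of 2 and 0.064 in the set of 3, and that of all rows -0.25 and 0.084. By sign, 16 members were lower in both sets (34.1% of all rows), 8 were higher in both (28.9%), 15 were lower in the set of 2 and higher in the set of 3 (27.2%), and only Pgls was the other way (9.81%). Because the sets were formed from these same values, a test between them is a description only. Tested directly in a fit chosen after seeing the data, the change differed between the sets for 25 of the 40 rows, where 63.3% of all rows differed. It was the lower one in the set of 2 for 24 of the 40, where 45.3% of all rows were. Adpgk, the remaining row of the 25, was lower in the set of 3 (-0.38, against -0.090).

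Control libraries of the sets were themselves apart. Both controls of the set of 2 were above the 3 other controls for 29 of the 40 rows and below them for 7, against 36.8% and 34.1% of all rows. This gap in mean log2 CPM was 4.05 for Aldoc, 1.67 for Eno2, 1.62 for Pdk1, 1.5 for the first Aldoa row, 1.25 for Gpi1 and 1.17 for Tpi1. It was 1.16 for Pfkl and 0.46 for Pgam1, and -0.059 for Eno1. With 1 mean per group and set, leaving 2 values against 2, limma called 0 members and 0 of all rows. In that fit, 5 members had an unadjusted p under 0.05 (the second Aldoa row, Eno1, H6pd, Pfkl and Pgam1), as had 1116 of all rows. By limma voom on the recovered reads, an alternative chosen after seeing the data, 6 members fell and 4 rose, where 13.9% and 16.1% of all rows did. The 4 were the 3 named and Taldo1.

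The CPM of the genes of a step were also added up in each library, as a description with no test. The sum was lower in every stiripentol library than in every control for 4 of the steps, and the sums of all other steps overlapped. Among single rows, 14.3% of all rows were lower in this way. Each of the 4 steps holds a gene already called lower (Pgam1, Pkm, Pdp1 or H6pd), and Pkm is a step of 1 gene, so these sums largely restate those calls. Phosphoglycerate mutase had 592 to 949 CPM in control and 206 to 511 CPM in stiripentol, Pkm 1482 to 2510 and 1241 to 1467 CPM, the pyruvate dehydrogenase phosphatases 44.1 to 63.2 and 32.6 to 41.4 CPM, and the oxidative pentose phosphate genes 468 to 575 and 279 to 393 CPM. The phosphofructokinase sum overlapped, at 250 to 539 CPM in control and 255 to 311 CPM in stiripentol, although its Pfkl part fell. The step sums with the largest falls in the set of 2 were phosphoglycerate mutase (0.235 times the control mean), triose phosphate isomerisation (0.298 times) and glycogen synthesis (0.343 times). They were 0.720, 1.05 and 0.948 times the control mean in the set of 3.

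**Figure D4:**
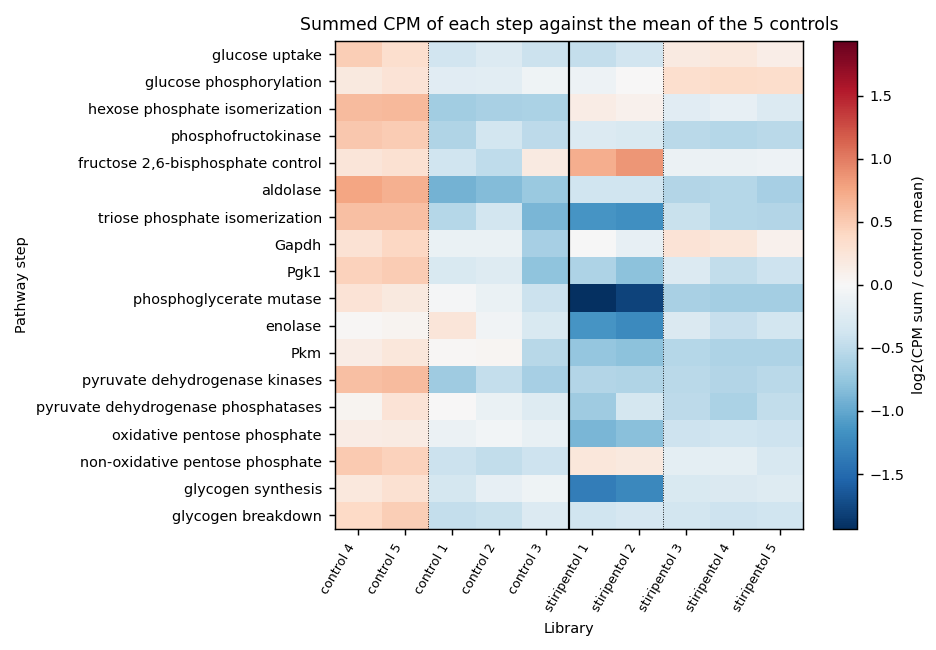
Summed CPM of each step in each library as the log2 ratio to the mean of the 5 controls, with the solid line between groups and dotted lines between sets. Controls 4 and 5 lie above controls 1 to 3 for most steps, and the darkest cells are phosphoglycerate mutase in stiripentol 1 and 2 (206 and 228 CPM, against 592 to 949 CPM in control).

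Further genes of carbohydrate metabolism were read from the same fit. Of 77 such genes listed, 71 were in the table and 43 were tested, of which 6 fell and 10 rose (14.1% and 13.6% of all rows). The largest falls included those of Gpd1, the cytosolic glycerol phosphate dehydrogenase that reoxidises NADH (-2.08 ± 0.28, adjusted p = 0.000731, with a stiripentol mean of -0.40 log2 CPM, so that it passed the filter only through its controls), and Pgm2l1, a sugar bisphosphate synthase (-1.42 ± 0.30, adjusted p = 0.00729). Pgp, Galk1 and Prps2 were among the others that fell. The largest rises were those of Pmm1, a phosphomannomutase (1.52 ± 0.37, adjusted p = 0.0128), Stbd1, a glycogen-binding protein (1.49 ± 0.34, adjusted p = 0.0101) and Shpk, the sedoheptulose kinase (1.28 ± 0.34, adjusted p = 0.0190). Gyg, Idnk, Phkg2, Pck2, Galt, Akr1b3 and Pgm1 also rose. The median change of these 43 genes was 0.19, with -0.099 in the set of 2 and 0.39 in the set of 3.

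Some markers of other cell types moved between the groups. Of 6 fibroblast markers, 5 were tested and 3 fell (Col1a2, Col3a1 and Pdgfra), and their summed level was 317 to 511 CPM in control and 106 to 129 CPM in stiripentol, with Lum at up to 0.052 CPM. Of 5 leukocyte markers, 4 were in the table, 2 were tested and 1 rose, with summed levels of 6.5 to 18.96 and 59.0 to 103 CPM. The 1 that rose, Cd68, made up most of these sums (4.12 to 17.9 and 55.1 to 103 CPM). Lyz2 was not called (0.61 to 2.76 and 0.58 to 3.74 CPM, limma, adjusted p = 0.648). Csf1r stayed under 0.41 CPM and Ptprc at or under 0.052 CPM. Of 4 epithelial markers, 2 were tested and 1 fell (Krt8), with sums of 2278 to 2598 and 1544 to 2145 CPM, and Epcam at or near 0. The 3 endothelial markers summed to 1.07 CPM at most. The part of these markers in the changes of the glycolytic genes was not tested.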

How the data were processed

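Total RNA was sequenced in 5 control and 5 stiripentol libraries. The study's methods name a Lexogen QuantSeq 3′ kit and the sample records name TruSeq total RNA, so gene length cannot be allowed for, and shares and sums over genes are of reads and are compared between libraries only. The values deposited by the authors are log2 CPM of each gene in each library, made with GENAVi, with a prior of 0.837 to 2.38 reads added before the logarithm. A row without reads stood at -4.82 log2 CPM in controls 1 to 3 and at -4.74 in every other library. The prior in proportion to library size was thus lower in controls 1 to 3 than in the other controls and all stiripentol libraries. The build is mm10 per the submitters' processing notes, and the aligner and annotation are not given in the sources used here. The authors also deposited group means on the log2 scale, p-values, −log10 p-values, q-values and a ratio with its log2, which were not used.

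The 44 members, the further gene lists and the replicate sets were chosen with earlier results of these data known. Genes were named by a rule: called members with their value in every library, members not called by their change, and the 3 largest changes each way of the further list, except for a result that is not reported here. limma 3.58.1 in R 4.3.3 compared the groups on these log2 values (mean-variance trend, rows with mean log2 CPM above 0, Benjamini-Hochberg adjustment over all rows). Isoform ratios were put to exact two-sided permutation tests in Python 3.11.15. Whole reads were recovered from 100% of the deposited values within 0.05 reads. Amplified reads are not independent molecules, so depth covers counting error only. Alternatives were each library left out in turn, the replicate number as a block, a set term, each set alone, 1 mean per set, other scalings, filters and pseudocounts, and a minimum change. limma voom on the recovered reads, a block by the numbers of the study's tables, the addition of copies and the fit of the difference between sets were chosen after seeing the data. limma was tested on simulated data. Promoters are from RefSeq (GRCm38.p6), and copies were aligned with blastn on GENCODE M21 transcripts.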

Additional observations from a re-analysis of the deposited data

Results flagged for a closer look

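Of 100 groups of 5 values examined, 3 had a sample far from the others by Dixon's criterion, where chance gives about 5. Pkm in control was lowest in control 3, at 10.53 log2 CPM, with the next control at 11.09. The total in control was lowest in control 5, at 22375625 reads, with the next control at 57991647. The second Aldoa row in stiripentol was lowest in stiripentol 2, at 1.14 log2 CPM, with the next library at 1.47. Without control 3 the change of Pkm was -0.76, and without control 5 the change of Pfkl was -1.45.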

How the results depend on the processing

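Of the 9 called rows, Pgam1, H6pd, Pkm and Rpia kept their call under every alternative except 1 mean per group and set. Pfkl lost it there and with the block by table number. Eno1, Pdp1 and Rpe lost it under several, the replicate block by the labels' numbers among them. The second Aldoa row lost it with 1 mean per group and set. This row was not tested with the filter at a mean above 1. It passed the main filter only through its stiripentol libraries, so its calls under other alternatives are no support for a rise. No called row reversed. The replicate set moved the counts most, and the cause was not tested. Leaving out 1 library gave 4 to 7 members lower, 2 to 4 higher and 1171 to 1802 of all rows lower. With a set term, 3336 of all rows were lower and 2908 higher, 13 members lower and 6 higher, and 10 of the further carbohydrate genes lower. In the set of 2 alone, 5726 of all rows were lower and 3158 higher, 28 members lower and 5 higher, and 17 further genes lower and 16 higher. In the set of 3 alone, 3322 of all rows were lower and 4637 higher, 10 members lower and 13 higher, and 24 further genes higher. With 1 mean per group and set, limma called 0 rows of any list in either direction, and 1116 rows and 5 members had an unadjusted p under 0.05. limma voom called 16 further genes higher. edgeR and DESeq2 had been intended as alternatives and were tried on the recovered reads. Both called more members than limma did, DESeq2 by the larger margin. The share of all rows that they called is not given beside this, so it is no result about the members. Their values are not reported here. The replicate numbers do not pair the libraries (mean correlation of deviations -0.152, range -0.240 to 0.061, and 0 of 10 libraries correlated best with their own number). By the same measure, the numbers of the study's tables gave values above 0 in every pair (mean 0.183, range 0.084 to 0.224). With these numbers, 5 of 10 libraries correlated best with their own number. The sets were matched by these same numbers, so same-numbered libraries there share a set. The measure therefore cannot tell a pairing of single libraries from a shared set. A block by the numbers of the study's tables, chosen after seeing the data, added Bpgm, G6pdx, Hk1 and Pdp2 to the calls. With it, 8 members were lower and 4 higher, where 17.9% of all rows were lower and 16.7% higher. With the block by the labels' numbers, Gys1 and Pdk1 were also called, 1062 of all rows were lower and 1020 higher, 6 further genes were higher, and 0 isoform ratios passed with either block, since 32 arrangements allow no p below 0.0625. The 2 passing ratios became 5 within sets and 0 to 2 when a library was left out.

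Reversals were confined to rows that were not called. In the set of 3 the change was above 0 for Aldoa (0.23), Aldoc (0.33), Eno3 (0.33), Pdk1 (0.065), Pfkfb1 (0.59), Pfkfb2 (0.0090), Pgd (0.21), Pgk1 (0.064), Pygb (0.010), Slc2a1 (0.52) and Tpi1 (0.081). In the set of 2 it was reversed for Gapdh (-0.42), Gpi1 (-0.51), Hk2 (-1.43), Pgls (0.030) and Taldo1 (-0.27), and with 1 mean per group and set for Gpi1 (-0.042) and Hk2 (-0.19). TMM scaling, which moved the median of all rows from -0.056 to 0.045, reversed Pdk3 (0.020), Pgls (0.030) and Slc2a1 (0.088), quantile normalization Slc2a1 (0.016), and limma voom Pdk3 (0.019), Pgls (0.015) and Slc2a1 (0.091). With 1 library left out, Gapdh ranged from -0.025 to 0.24, Gpi1 from -0.085 to 0.24, Hk2 from -0.10 to 0.34, Slc2a1 from -0.10 to 0.12 and Hk2 minus Hk1 from -0.47 to 0.016. Control 5 had the fewest reads, and rows of few reads, such as the second Aldoa row with 10 reads there, are the least precise.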
